A study of Mus musculus with 8 samples.

Results

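The 10 genes described here carry out the uptake, handling and export of lipid in macrophages: the scavenger receptor genes Cd36, Msr1 and Marco, the sterol exporter genes Abca1 and Abcg1, the apolipoprotein gene Apoe, the lipase gene Lpl, the fatty acid carrier gene Fabp4, and the nuclear receptor genes Nr1h3 and Pparg. Their roles define the set, which was proposed with earlier results of these data known, and they were matched by Ensembl identifier, so that they are 10 of the 54532 genes with a row in each count table. All 10 were among the 14591 genes that passed the filter on low counts, although Marco passed only through the wild-type (WT) libraries. RNA-Seq had been performed on BMDMs, the macrophages that form when bone marrow of mice is cultured, here for 7 days with supernatant of L929 cells. The mice were 6 to 8 weeks old. There were 4 groups of 2 libraries: WT BMDMs, and BMDMs of mice without Trex1, an exonuclease that removes cytosolic DNA (Trex1-KO), with vehicle, with H151 or with SN-011. Both antagonists are small molecules that inhibit STING, the adaptor that cytosolic DNA engages through cGAS. Incubation with DMSO vehicle or antagonist lasted 12 h in every group, and H151 was used at 500 nM. The study's methods give the same 500 nM for SN-011, whereas the labels give no dose for it. The deletion was constitutive. According to the study's methods, Trex1-KO mice came from matings of heterozygotes whereas WT mice were bought, so that genotype and origin of the mice cannot be told apart. The study describes the libraries of a group as independent experiments, and the labels do not say whether they came from separate animals. The p-values below measure the spread between these libraries.

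Macrophages take up modified lipoproteins through scavenger receptors, with no feedback from their sterol content. Surplus sterol is oxidised to oxysterols, which activate the liver X receptors (LXRs), and these raise transcription of the exporters and of apolipoprotein E. Fatty acids released by lipoprotein lipase are ligands of PPARγ, which itself raises transcription of Cd36 and Fabp4. Macrophages filled with lipid in this way are the foam cells of the arterial wall.

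Total counts ran from 11845470 to 17284863 per library, so that a floor of 3 counts was worth 0.174 to 0.253 CPM (counts scaled by library size). Trex1 was listed at 0 counts in all 8 libraries, WT included, and so could not serve as a check of the genotype labels. All 9 macrophage markers were measured (Adgre1, Csf1r and Lyz2 among them), and their summed level, most of it Lyz2 (20296 to 23079 CPM), lay between 30436 and 32638 CPM in all libraries. Of these 9, Adgre1, Cd68 and Fcgr1 were higher in Trex1-KO (3 genes, beside 9.27% of all tested genes), and Fcgr1 was lower with each antagonist. For single markers, higher and lower mean an adjusted p under 0.05 in the edgeR test described below. Markers of other cells moved with the genotype. The 8 fibroblast or stromal markers summed to 2329 to 2572 CPM in the WT libraries and to 937 to 1318 CPM in the other 6. Of the 7 tested, 6 were lower in Trex1-KO, beside 7.11% of all tested genes. The 9 neutrophil markers summed to between 9.42 and 9.86 CPM in WT, against 66.1 to 100.6 CPM in the other 6. All 6 that were tested were higher in Trex1-KO, beside 9.27% of all tested genes, and Ly6g never exceeded 3 counts. The 5 endothelial markers summed to 27.7 CPM in both WT libraries and 46.4 to 64.3 CPM in the others. Adipocyte markers matter for Lpl, Fabp4, Cd36 and Pparg. The 8 listed summed to 6.78 to 8.98 CPM in WT and 0.377 to 2.21 CPM in the other 6. Most of the WT sum was Plin4 (up to 8.83 CPM), the only 1 of the 8 that was tested, and it was lower in Trex1-KO. Lep and Pck1 were at 0 in every library, and Adipoq, Plin1 and Retn at no more than 2, 4 and 8 counts. The 6 dendritic cell markers summed to 1.69 to 2.72 CPM in WT and 3.43 to 3.70 CPM in Trex1-KO, with Xcr1 and Clec9a higher in Trex1-KO, and the lymphocyte markers summed to at most 0.857 CPM. No tested marker of the stromal (7 of 8 tested), neutrophil (6 of 9), endothelial (5 of 5), dendritic cell (3 of 6) or adipocyte (1 of 8) lists passed with either antagonist. The other markers did not pass the filter on low counts and could not be called. The part of these shifts in the differences between Trex1-KO and WT was not tested, and in bulk samples fewer cells of a type and less RNA per cell cannot be told apart.

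On CPM per kilobase of the longest coding transcript, which allows genes to be compared, Apoe was far above the other genes, at 9892 ± 731 (SD, n = 2) in WT. Lpl followed at 292 ± 42.3, then Abca1 at 142 ± 0.651, Cd36 at 86.3 ± 2.97 and Msr1 at 52.2 ± 0.106. Fabp4, Abcg1 and Pparg lay at 37.0 ± 0.903, 29.9 ± 0.247 and 16.7 ± 0.296. Nr1h3 at 6.07 ± 0.839 and Marco at 3.55 ± 2.93 closed the order and overlapped between replicates. Every other pair of neighbours in WT was separated. The order depends on the length used. All exons of Lpl and Fabp4 together span 10478 and 4489 bases, against 4115 and 896 in the longest coding transcript. In the other groups 3 pairs of neighbours overlapped, namely Abcg1 and Fabp4 in Trex1-KO, Cd36 and Abca1 with H151, and Msr1 and Fabp4 with SN-011.

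**Figure D1:**
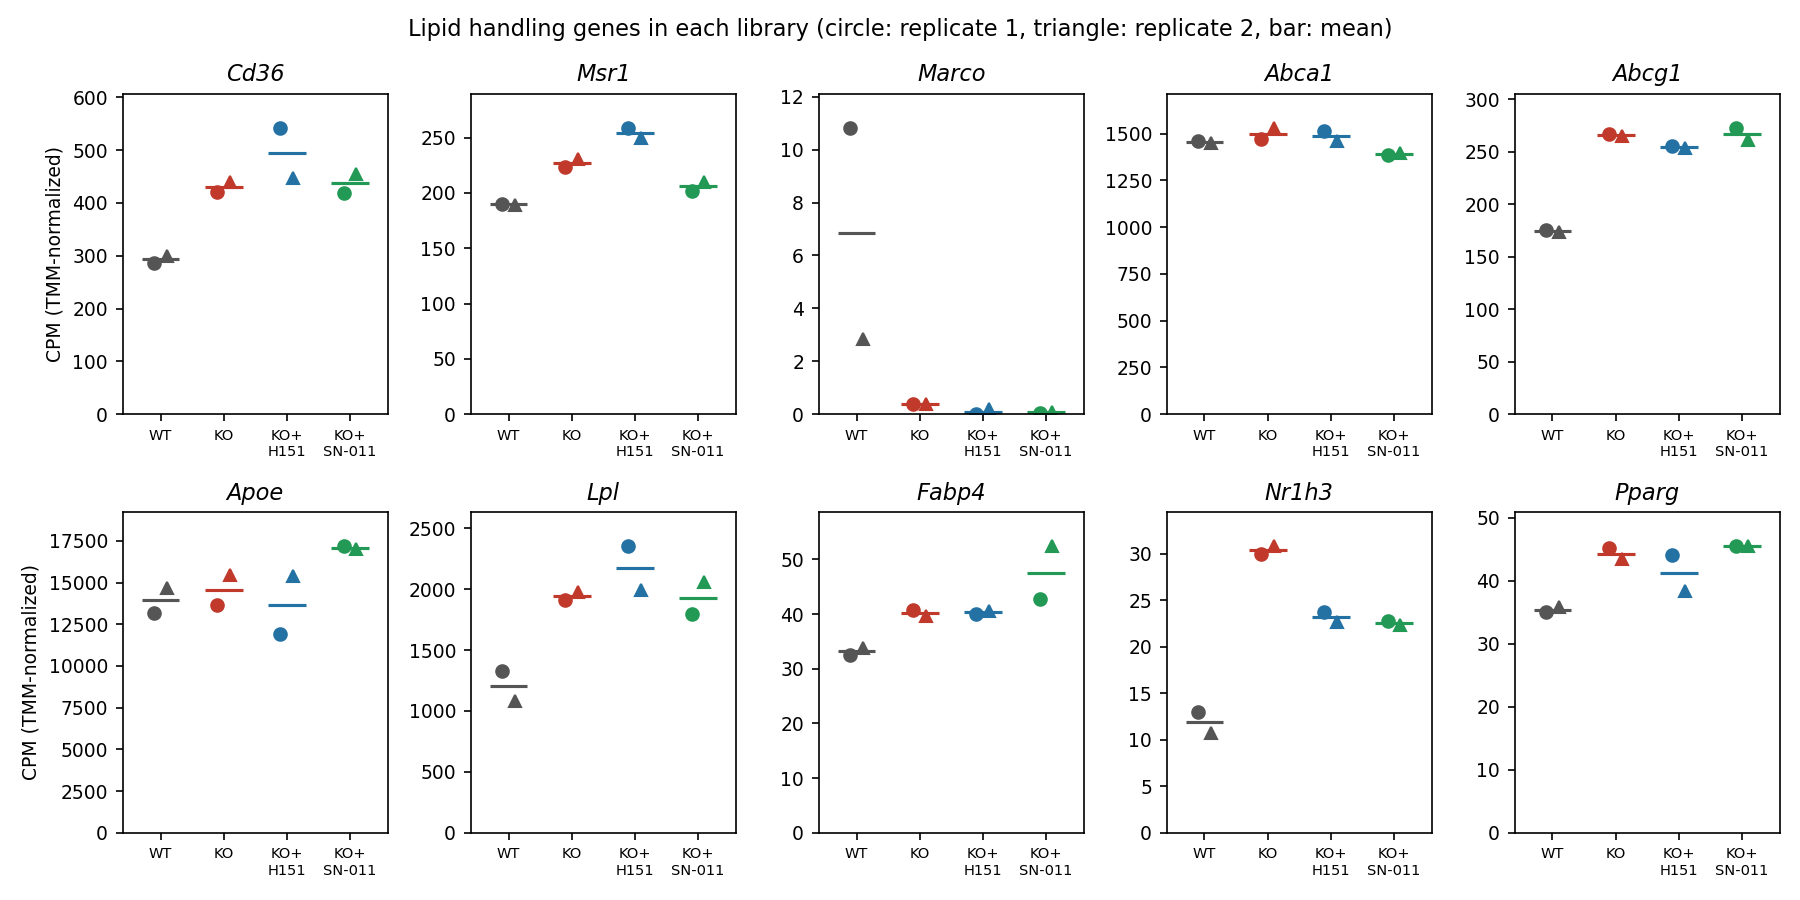
Level of each of the 10 genes in every library, as TMM-normalized CPM on a linear axis from 0 (circles, replicate 1; triangles, replicate 2; bars, group mean of 2 libraries). Nr1h3, Cd36, Abcg1 and Lpl lie higher in the 6 Trex1-KO libraries than in both WT libraries, Marco lies lower, and Abca1 stays between 1387 and 1531 CPM.

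The first question was how these genes differed between the genotypes, whose mice also differed in origin. Of the 10, 7 differed between Trex1-KO and WT BMDMs, against 16.4% of all tested genes (here "called": an adjusted p under 0.05 in edgeR's quasi-likelihood test, with Benjamini-Hochberg adjustment). Nr1h3, Lpl, Abcg1, Cd36, Pparg and Msr1 rose, whereas 9.27% of all tested genes rose. Marco was lower, as were 7.11% of all tested genes, but it passed the filter on low counts only through WT, where it is high, so that its call is given as a description. Without it, 6 of 9 genes were called. Abca1, Apoe and Fabp4 were not called. The median log2 fold change of the 9 genes was 0.32, beside -0.00 over all tested genes. With scaling by total counts alone in place of TMM, the share of all calls that were higher went from 56.6% to 37.2%, and Msr1 and Pparg were no longer called, which left 5.

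Nr1h3 (ENSMUSG00000002108, mm10 chromosome 2, 91184061 to 91202834, minus strand), which encodes LXRα, had the largest rise of the 10. The WT libraries held 13.03 and 10.7 CPM of it, against 29.96 and 30.8 CPM in Trex1-KO, 23.7 and 22.7 CPM with H151, and 22.7 and 22.3 CPM with SN-011. Both WT libraries were lowest and both Trex1-KO libraries highest, with the 4 antagonist libraries between them and no overlap among these 3 sets. Trex1-KO exceeded WT 2.56-fold (log2 fold change 1.36 ± 0.12 SE, adjusted p = 1.80e-06, edgeR). Counts of Nr1h3 lay between 158 and 467 per library, and 34 of its 2515 exonic bases (1.352%) are shared with Gm13783. The 250 bases upstream of 1 of its 2 RefSeq starts (GRCm38.p6, chr2:91195117-91195366, minus strand), which lie inside the gene bounds given above, are shown because Nr1h3 moved most among the genes with a measurable level in every library. G and C made up 63.2% of them, beside a median of 52.4% over 32851 RefSeq windows.

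Nr1h3: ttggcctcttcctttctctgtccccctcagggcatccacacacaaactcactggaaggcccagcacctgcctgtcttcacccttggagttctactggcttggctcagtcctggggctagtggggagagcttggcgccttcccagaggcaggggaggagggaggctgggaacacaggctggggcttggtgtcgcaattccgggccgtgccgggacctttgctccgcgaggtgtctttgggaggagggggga

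Pparg (ENSMUSG00000000440, chromosome 6, 115360951 to 115490399, plus strand) encodes PPARγ. It was at 35.0 and 35.9 CPM in WT BMDMs, 45.2 and 43.4 CPM in Trex1-KO, 44.1 and 38.4 CPM with H151, and 45.4 CPM in both SN-011 libraries. All 6 Trex1-KO libraries were above both WT libraries. The rise in Trex1-KO was 1.25-fold (log2 fold change 0.32 ± 0.09 SE, adjusted p = 0.0218, edgeR), and this call was lost on leaving out any of the 4 libraries compared (adjusted p = 0.0509 to 0.158) and with DESeq2 (adjusted p = 0.0829).

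The scavenger receptor genes moved in both directions. CD36 binds oxidised lipoproteins and long-chain fatty acids. Cd36 (ENSMUSG00000002944, chromosome 5, 17781690 to 17888801, minus strand) was at 286 and 300.4 CPM in WT BMDMs, 421 and 439.8 CPM in Trex1-KO, 542 and 448 CPM with H151, and 419 and 456 CPM with SN-011. The WT libraries were the lowest, and H151 replicate 1 stood above all others. Trex1-KO exceeded WT 1.47-fold (log2 fold change 0.55 ± 0.08 SE, adjusted p = 0.000249, edgeR). The class A scavenger receptor gene Msr1 (ENSMUSG00000025044, chromosome 8, 39581685 to 39642673, minus strand), whose product takes up acetylated and oxidised lipoproteins, was at 189.4 and 190.0 CPM in WT, whereas the Trex1-KO libraries held 223 and 231 CPM. With H151 it was at 259 and 249 CPM and with SN-011 at 202 and 210.4 CPM. No group overlapped with another. With 2 libraries a group this also occurred without a call, as for Abca1 between Trex1-KO and WT (adjusted p = 0.597, edgeR). The Trex1-KO rise was 1.20-fold (log2 fold change 0.26 ± 0.06 SE, adjusted p = 0.00586, edgeR). Without WT replicate 1 or WT replicate 2 its adjusted p was 0.0578 and 0.0589, and with total-count scaling it was 0.0556.

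Marco (ENSMUSG00000026390, chromosome 1, 120474538 to 120505024, minus strand) encodes another class A receptor, which binds bacteria and particles. Its counts were 147 and 42 in WT, 5 and 6 in Trex1-KO, 0 and 3 with H151, and 1 and 1 with SN-011. Both WT libraries were above all others, and they differed among themselves, at 10.8 and 2.85 CPM. From summed counts, Trex1-KO was 17.2-fold below WT (95% exact interval 9.41 to 35.1, which covers counting error only, since reads were not tied to single molecules). The edgeR log2 fold change was -4.10 ± 0.66 SE, given with no p since Marco entered the test through its WT level, and was -2.87 without WT replicate 1 and -4.79 without WT replicate 2. In the H151 and SN-011 groups, no library held more than 3 counts of Marco.

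The sequences upstream of the RefSeq starts of Cd36 (GRCm38.p6, chr5:17835897-17836146, minus strand) and Marco (chr1:120505025-120505274, minus strand) are shown for the receptors with the largest rise and fall. The Cd36 window lies inside the bounds given for the gene. G and C made up 43.2% of the Cd36 sequence and 47.6% of the Marco sequence.

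Cd36: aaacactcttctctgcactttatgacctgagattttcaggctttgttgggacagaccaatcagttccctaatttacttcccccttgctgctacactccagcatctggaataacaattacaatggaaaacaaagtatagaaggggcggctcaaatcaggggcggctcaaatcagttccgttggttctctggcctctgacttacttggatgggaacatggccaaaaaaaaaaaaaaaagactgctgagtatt

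Marco: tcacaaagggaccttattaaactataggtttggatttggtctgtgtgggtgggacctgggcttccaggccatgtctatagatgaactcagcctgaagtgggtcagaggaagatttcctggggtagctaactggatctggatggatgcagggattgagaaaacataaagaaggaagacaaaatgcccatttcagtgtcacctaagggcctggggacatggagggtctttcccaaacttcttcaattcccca

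Of the 2 LXR-controlled exporters, Abcg1 was called and Abca1 was not. Abcg1 (ENSMUSG00000024030, chromosome 17, 31057675 to 31117988, plus strand), which passes sterol to high-density lipoprotein, was at 175 and 173 CPM in WT BMDMs, 267 and 265 CPM in Trex1-KO, 256 and 253 CPM with H151, and 273 and 261 CPM with SN-011. The WT libraries were the lowest by a wide margin and the other 6 lay close together. Abcg1 rose 1.52-fold in Trex1-KO (log2 fold change 0.61 ± 0.06 SE, adjusted p = 3.70e-06, edgeR). Abca1 (ENSMUSG00000015243, chromosome 4, 53030787 to 53159895, minus strand), which loads sterol onto lipid-poor apolipoprotein A-I, was at 1459 and 1449.6 CPM in WT BMDMs, 1470.5 and 1531 CPM in Trex1-KO, 1515 and 1462 CPM with H151, and 1387 and 1394 CPM with SN-011. Its Trex1-KO difference from WT was 0.05 on the log2 scale (95% interval -0.06 to 0.15, adjusted p = 0.597, edgeR), and -0.04 with total-count scaling. The difference between Abca1 and Abcg1 in their response was not itself tested, but their 95% intervals did not overlap (0.49 to 0.73 for Abcg1).

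Apoe (ENSMUSG00000002985, chromosome 7, 19696109 to 19699188, minus strand), whose product accepts exported sterol, was at 13199.6 and 14656 CPM in WT BMDMs, 13648 and 15476.5 CPM in Trex1-KO, 11918 and 15369.5 CPM with H151, and 17172 and 17014 CPM with SN-011. The first 3 groups overlapped and both SN-011 libraries were the highest. Its Trex1-KO difference from WT was 0.06 on the log2 scale (95% interval -0.13 to 0.26, adjusted p = 0.714, edgeR).

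RefSeq windows of Msr1, Abcg1, Lpl and Fabp4 were not analysed here.

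Lpl (ENSMUSG00000015568, chromosome 8, 68880491 to 68907448, plus strand), the secreted lipase that frees fatty acids from lipoprotein triglyceride, was at 1326 and 1079 CPM in WT BMDMs, 1911 and 1976 CPM in Trex1-KO, 2351 and 1990.01 CPM with H151, and 1792 and 2058 CPM with SN-011. Both WT libraries were below the other 6. It rose 1.62-fold in Trex1-KO (log2 fold change 0.69 ± 0.10 SE, adjusted p = 0.000170, edgeR). Fabp4 (ENSMUSG00000062515, chromosome 3, 10204088 to 10208576, minus strand), the cytosolic carrier that PPARγ controls, was at 32.6 and 33.8 CPM in WT BMDMs, 40.7 and 39.7 CPM in Trex1-KO, 40.1 and 40.6 CPM with H151, and 42.7 and 52.4 CPM with SN-011. All 6 Trex1-KO libraries were above both WT libraries. Its log2 fold change in Trex1-KO was 0.28 (95% interval 0.06 to 0.49), which missed the threshold in the fit of all groups (adjusted p = 0.0817, edgeR) and passed it with only the 2 groups compared (adjusted p = 0.0484).

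The second question was whether blocking STING for 12 h changed these genes in Trex1-KO BMDMs. With H151, 0 of the 10 were called, against 2.23% of all tested genes, by edgeR's quasi-likelihood test and by DESeq2, and 1 (Nr1h3) by edgeR's exact test. Cd36, Msr1 and Nr1h3 had an unadjusted p under 0.05 (3 of 10), beside 9.36% of all tested genes. That count was 6 with every gene that had a count, and it moved both ways with single libraries left out. With SN-011, 0 of the 10 were called, against 2.33% of all tested genes, by the same tests, and again Nr1h3 alone by the exact test. Abca1, Apoe, Fabp4, Msr1 and Nr1h3 had an unadjusted p under 0.05 (5 of 10), beside 12.0% of all tested genes. That count was 2 with DESeq2 and 6 with every gene that had a count, and it fell with any single library left out. The SN-011 libraries were deposited in a later record than the others, so that SN-011 treatment and any difference between the rounds of work cannot be told apart, and both comparisons use the same Trex1-KO libraries without antagonist.

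Nr1h3 had the largest antagonist differences among the 9 genes that could be compared. It was 1.31-fold lower with H151 (log2 fold change -0.39, 95% interval -0.62 to -0.16, adjusted p = 0.106, edgeR) and 1.35-fold lower with SN-011 (log2 fold change -0.43, 95% interval -0.66 to -0.20, adjusted p = 0.0582, edgeR). By edgeR's exact test the adjusted p was 0.0305 for H151 and 0.00935 for SN-011. For SN-011 it was 0.0362 with only the 2 groups compared and 0.0246 with every gene that had a count (edgeR quasi-likelihood). It was 0.0388 with the replicate number as a block (edgeR quasi-likelihood) and 0.198 with DESeq2. The call thus turns on the test, the groups fitted, the filter and the block. Nr1h3 stayed above WT with either antagonist, by 1.96-fold with H151 (adjusted p = 9.78e-05, edgeR) and 1.90-fold with SN-011 (adjusted p = 0.000132, edgeR).

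Abcg1, Lpl and Cd36, the other genes with a large rise in Trex1-KO, were not called against vehicle with either antagonist. Abcg1 differed by -0.06 with H151 (95% interval -0.18 to 0.05) and by 0.01 with SN-011 (-0.11 to 0.12) on the log2 scale. Lpl differed by 0.16 with H151 (-0.05 to 0.36) and by -0.01 with SN-011 (-0.22 to 0.19). Its H151 value was 0.035 without H151 replicate 1 and 0.27 without H151 replicate 2. With every gene of at least 1 count tested, Lpl and Cd36 were called for H151 (adjusted p = 0.0278 and 0.0434, edgeR). For Cd36 the log2 fold change was 0.20 with H151 (0.03 to 0.37, adjusted p = 0.387, edgeR) and 0.02 with SN-011 (-0.15 to 0.19). H151 replicate 1 set the Cd36 value, which was 0.33 without H151 replicate 2 (adjusted p = 0.0114, edgeR) and 0.059 without H151 replicate 1 (adjusted p = 0.913). Pparg differed by -0.11 with H151 (-0.29 to 0.08) and by 0.04 with SN-011 (-0.15 to 0.22). Its H151 value was -0.20 without H151 replicate 1 and -0.0069 without H151 replicate 2.

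**Figure D2:**
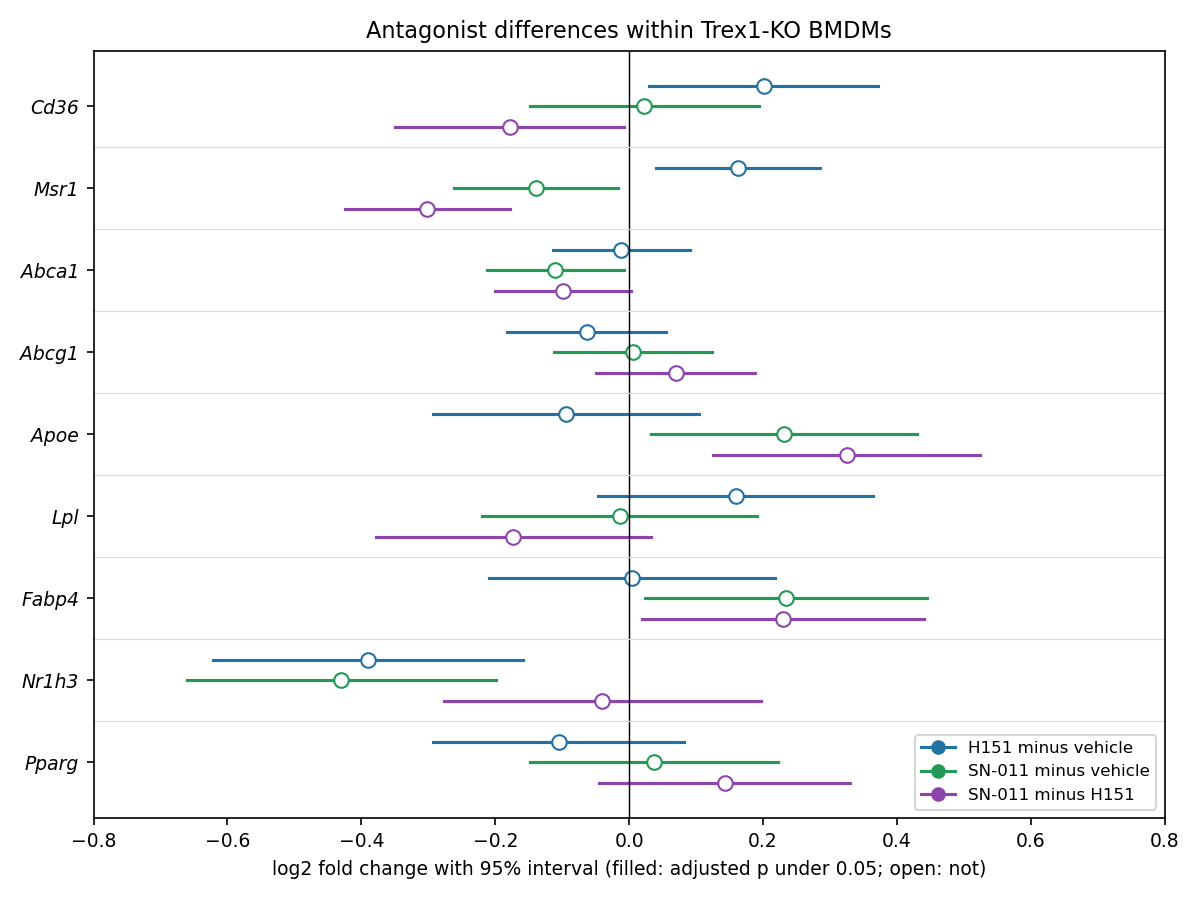
Log2 fold changes of 9 genes between antagonist groups and vehicle, and between the antagonists, within Trex1-KO BMDMs, with 95% intervals (n = 2 libraries a group). All points are open, since none passed the threshold of 0.05. Nr1h3 lies at -0.39 and -0.43 against vehicle, and Msr1 lies at -0.30 for SN-011 against H151. Marco, at 0 to 6 counts in these libraries, is left out.

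The antagonists were then compared with each other at the doses stated above. Again 0 of the 10 genes were called by the quasi-likelihood test, against 0.158% of all tested genes, and 4 had an unadjusted p under 0.05 (Apoe, Cd36, Fabp4 and Msr1), beside 8.91% of all tested genes. DESeq2 and the exact test each called 1 gene, Msr1. Msr1 was 1.23-fold lower with SN-011 than with H151 (log2 fold change -0.30, 95% interval -0.42 to -0.18, adjusted p = 0.0702, edgeR quasi-likelihood). Its adjusted p was 0.0182 with DESeq2 and 0.0119 with the exact test. Against vehicle, Msr1 was 0.16 higher with H151 (0.04 to 0.28) and 0.14 lower with SN-011 (log2 fold change -0.14, -0.26 to -0.02) on the log2 scale, neither of them called. Apoe was 1.25-fold higher with SN-011 than with H151 (log2 fold change 0.33, 95% interval 0.13 to 0.52, adjusted p = 0.343, edgeR). The H151 libraries of Apoe were far apart, and its log2 fold change was 0.52 without H151 replicate 2 (adjusted p = 0.00109, edgeR) and 0.16 without H151 replicate 1 (adjusted p = 0.998). Fabp4 was 0.23 higher with SN-011 than with H151 (0.02 to 0.44, adjusted p = 0.534, edgeR), with SN-011 replicate 2 the highest library, and the value was 0.08 without that library and 0.38 without SN-011 replicate 1. Nr1h3 differed by -0.04 between the antagonists (95% interval -0.28 to 0.20).

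Each antagonist group was also set against WT, which shares the WT libraries between comparisons. With H151, 6 of the 10 genes differed from WT, beside 11.8% of all tested genes, and 7 did with SN-011, beside 11.7%. Without Marco these were 5 and 6 of 9. Nr1h3, Lpl, Cd36 and Abcg1 were higher and Marco lower in both. Of all tested genes, 6.79% were higher and 5.04% lower with H151, and 6.18% were higher and 5.57% lower with SN-011. Lpl exceeded WT by 0.85 ± 0.10 SE on the log2 scale with H151 (adjusted p = 5.00e-05, edgeR) and by 0.68 ± 0.10 with SN-011 (adjusted p = 0.000312, edgeR). Cd36 exceeded WT by 0.76 ± 0.08 with H151 and by 0.58 ± 0.08 with SN-011, and Abcg1 by 0.54 ± 0.06 and 0.61 ± 0.06. Msr1 was called only with H151 (log2 fold change 0.42, adjusted p = 0.000236, edgeR), at 0.12 with SN-011 (adjusted p = 0.235). Pparg at 0.36 (adjusted p = 0.0150, edgeR) and Fabp4 at 0.51 (adjusted p = 0.00355, edgeR) were called only with SN-011, at 0.22 and 0.28 with H151. The Fabp4 call was lost without SN-011 replicate 2 (adjusted p = 0.0712) and without WT replicate 1 (adjusted p = 0.0504), and the Pparg call without any of the 4 libraries compared (adjusted p = 0.0791 to 0.134). Apoe was 0.30 above WT with SN-011 (95% interval 0.10 to 0.49, adjusted p = 0.0560, edgeR). Marco was 60.4-fold below WT with H151 (95% exact interval 20.3 to 295) and 96.6-fold below WT with SN-011 (26.4 to 803), from 3 and 2 counts. Both intervals leave out the spread between the WT libraries, which held 147 and 42 counts. With total-count scaling the share of all calls that were higher went from 57.4% to 41.7% with H151 and from 52.6% to 40.3% with SN-011.

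**Figure D3:**
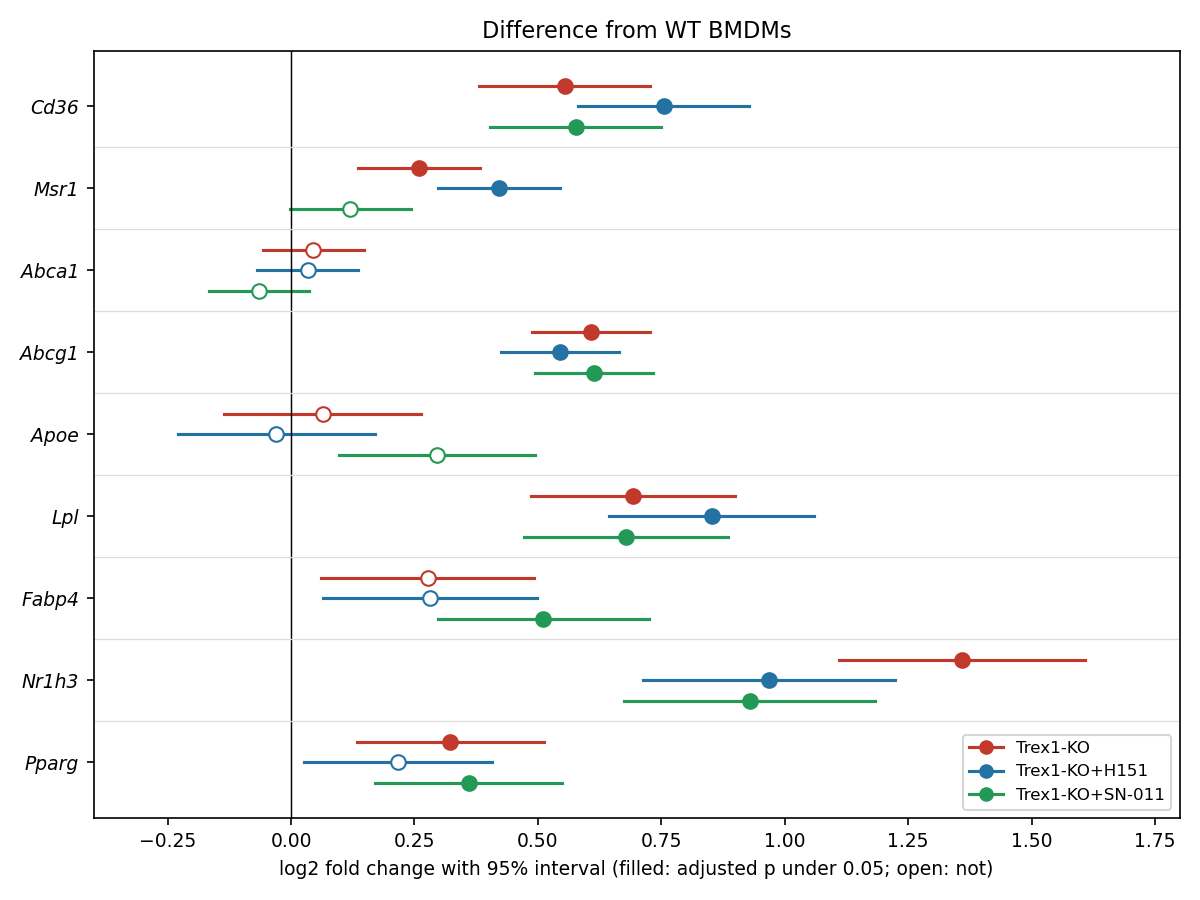
Log2 fold changes against WT of 9 genes in Trex1-KO, Trex1-KO+H151 and Trex1-KO+SN-011 BMDMs, with 95% intervals (n = 2 libraries a group; filled points have an adjusted p under 0.05). Nr1h3 lies at 1.36, 0.97 and 0.93, while Abcg1 lies at 0.61, 0.54 and 0.61. Marco, which fell by 4.10 on the log2 scale in Trex1-KO, is off the axis and left out.

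The wider set of lipid genes was read from 6 lists of 82 genes, of which 73 were tested and 27 differed between Trex1-KO and WT, 16 higher and 11 lower. That is 37.0% of those tested, beside the 16.4% of all genes. Scavenger and lipoprotein receptors other than the 3 above gave 10 of 16 tested, in equal numbers each way. Scarf1, a receptor for modified lipoproteins, rose from 29.6 ± 1.38 to 62.3 ± 0.248 CPM (SD, n = 2; log2 fold change 1.07, adjusted p = 1.14e-06, edgeR). Its paralog Scarf2 fell by 1.09 on the log2 scale (adjusted p = 0.000780, edgeR), and Colec12, Stab1 and Stab2 fell too. Cd68, Cxcl16, Lrp1 and Sorl1 rose. Scarf2 and Colec12 are also known from stromal cells, whose markers were lower in Trex1-KO as given above. The part of this or of the other marker shifts in the receptor differences was not tested.

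Among sterol transporters and lipoprotein proteins, 4 of 9 tested were called (44.4%, beside 16.4% of all tested genes). Cd5l, a secreted macrophage protein that LXRs raise, went from 120.4 ± 14.9 to 359 ± 25.04 CPM (log2 fold change 1.58, adjusted p = 5.54e-08, edgeR), and Pltp, a phospholipid transfer protein, rose too. Apoc1, the neighbour of Apoe, fell by 1.57 on the log2 scale (adjusted p = 0.00571, edgeR), a call lost without WT replicate 2 (adjusted p = 0.0852), and Angptl4, an inhibitor of lipoprotein lipase, fell as well. Of 8 other LXR targets, the stearoyl-CoA desaturase genes Scd2 (log2 fold change -0.80, adjusted p = 0.000142, edgeR) and Scd1 (-0.66, adjusted p = 0.0114) fell and 0 rose (25% called, beside the same 16.4%), while Cd5l, which LXRs also raise, stood in the list above and rose. The Scd1 call was lost without WT replicate 1 (adjusted p = 0.0882) and without Trex1-KO replicate 2 (adjusted p = 0.119). Of 8 other lipid nuclear receptors and coregulators tested, Rxra, which encodes the partner of LXRα and PPARγ, alone was called (12.5%, under the 16.4% of all tested genes). It fell from 220.2 ± 14.9 to 155 ± 3.06 CPM (log2 fold change -0.51, adjusted p = 8.20e-05, edgeR), opposite in sign to Nr1h3.

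In the list of fatty acid handling and PPAR targets, 6 of 20 genes rose and 1 fell (35.0% called, beside 16.4% of all tested genes). Mgll, a monoglyceride lipase, rose by 1.61 on the log2 scale (adjusted p = 0.00341, edgeR) at 1.64 ± 0.695 CPM in WT, a call lost without WT replicate 2 (adjusted p = 0.0565). Acsl1, Plin2, Lipe, Slc27a1 and Pnpla2 rose too (Acsl1 was not called without WT replicate 2, adjusted p = 0.0620), and Pdk4, a kinase that restrains glucose oxidation, fell by 1.06 on the log2 scale (adjusted p = 0.000224, edgeR). Of 12 genes of lysosomal and intracellular cholesterol handling, Stard3, Lipa and Npc2 rose and 0 fell (25% called, beside the same 16.4%). Stard3, a late endosomal sterol transfer protein, went from 86.5 ± 2.10 to 129 ± 5.92 CPM (log2 fold change 0.58, adjusted p = 0.000315, edgeR). The acid lipase gene Lipa rose by 0.23 (adjusted p = 0.00466, edgeR), and was not called without WT replicate 2 (adjusted p = 0.0712). With total-count scaling Lipa, Npc2, Lipe and Pnpla2 were no longer called.

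**Figure D4:**
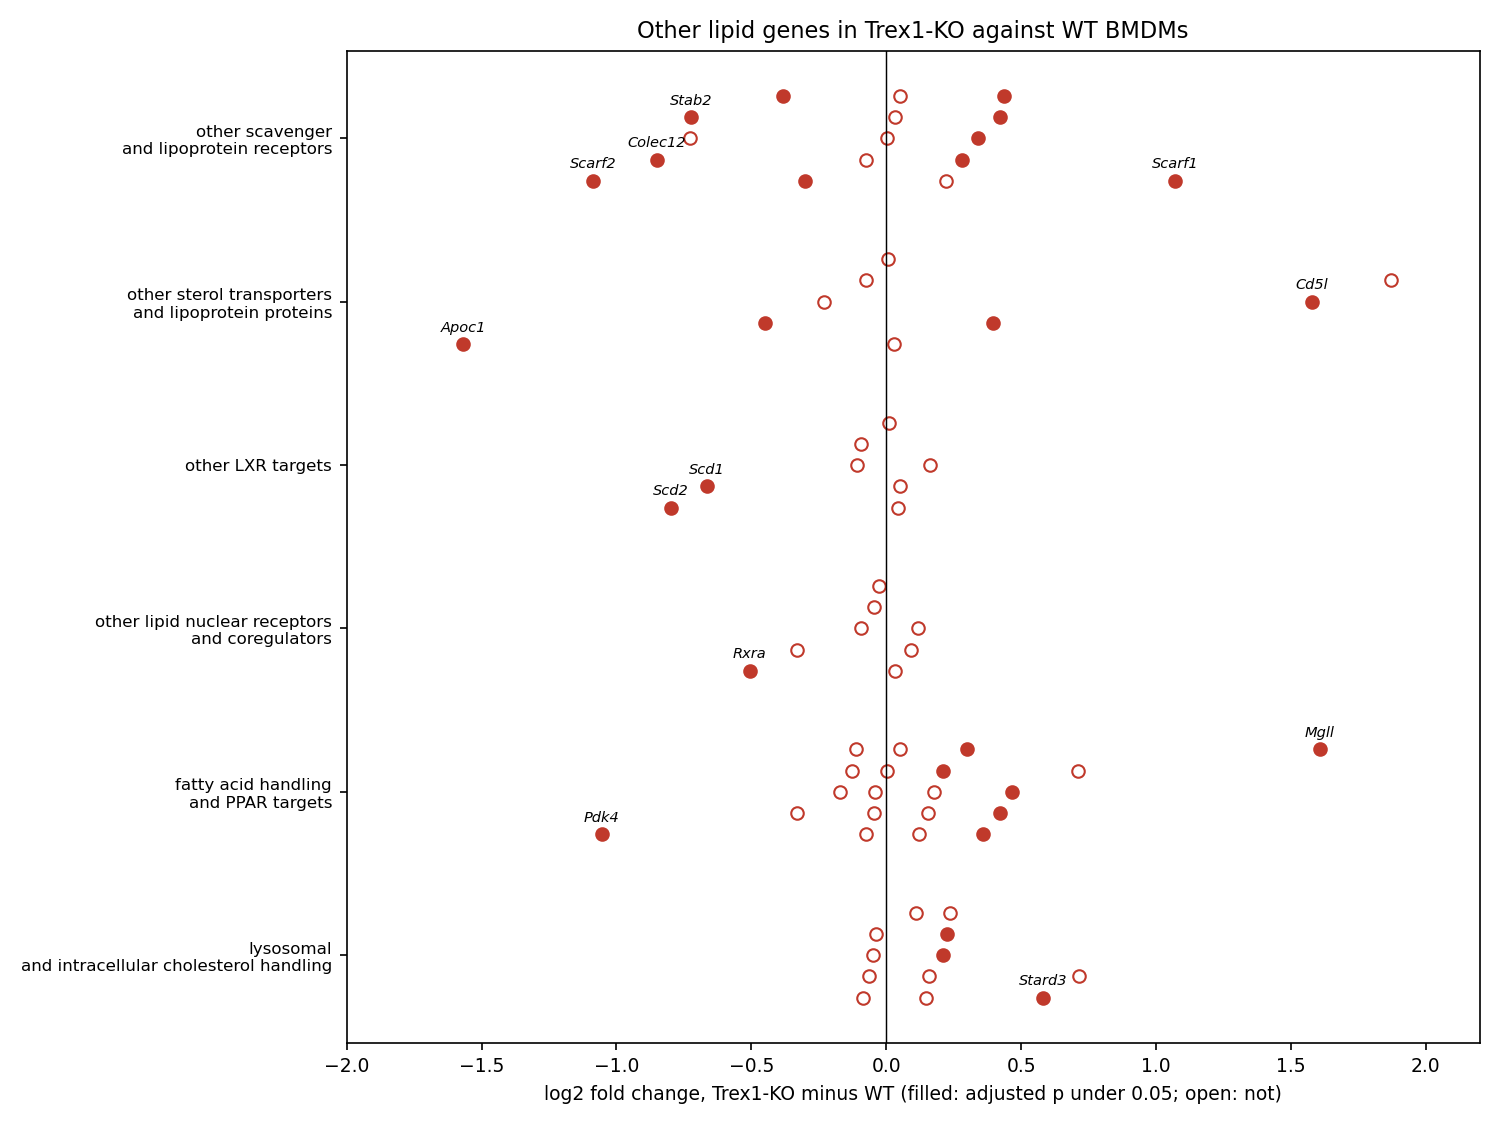
Log2 fold change between Trex1-KO and WT BMDMs of the 73 tested genes of 6 lipid lists, 1 row of points per list (vertical offsets within a row have no meaning; filled, adjusted p under 0.05). Called genes with a change over 0.5 are named. Both directions occur among receptors, and Scd1 and Scd2 lie below 0 whereas Cd5l, also raised by LXRs but in another list, lies at 1.58.

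With the antagonists, 3 of the 73 list genes were called in each comparison, which is 4.11% of them, beside 2.23% of all tested genes for H151 and 2.33% for SN-011. Stard3 fell with both, by 0.43 on the log2 scale with H151 (adjusted p = 0.0161, edgeR) and by 0.37 with SN-011 (adjusted p = 0.0369, edgeR). Arl4c, an LXR target, rose by 0.30 with H151 (adjusted p = 0.0370, edgeR), and Stab1 rose by 0.23 (adjusted p = 0.0381, edgeR). Acsl1, which activates fatty acids, fell by 0.64 with SN-011, from 78.5 ± 2.88 to 50.3 ± 2.96 CPM (adjusted p = 0.00158, edgeR), beside -0.37 with H151 (adjusted p = 0.0625). Leaving out libraries ended each of the calls named here except that of Acsl1: Arl4c without any of the 4 libraries compared, Stab1 without either Trex1-KO library or H151 replicate 1, and Stard3 without Trex1-KO replicate 2 or H151 replicate 1 for H151 and without any of the 4 for SN-011. Stab1 was also not called with the exact test (adjusted p = 0.0759) or with only the 2 groups compared (adjusted p = 0.214), nor was Stard3 with only the 2 groups compared for H151 (adjusted p = 0.0712) or with total-count scaling for SN-011 (adjusted p = 0.0546). Between SN-011 and H151, 0 of the 73 were called by the quasi-likelihood test.

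For each of the 7 called genes, the tested genes with the most similar profile over the 8 libraries were found from the root mean square difference of centred log2 CPM. For Nr1h3 these were Lgals3bp (0.080) and Il2rg (0.083), and for Abcg1 they were B2m (0.042) and H2-D1 (0.051). Cd36 was closest to Ide (0.051) and Tlr13 (0.075), Msr1 to Ttf2 (0.040) and Nlrp1c-ps (0.047), and Pparg to Adcy3 (0.045) and Cdc42se2 (0.048). Lpl was closest to Cdk18 (0.081) and Gm38057 (0.090), while for Marco the nearest, Gm10709 (0.737) and Pxylp1 (0.823), were far.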

How the data were processed

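Polyadenylated RNA of 8 BMDM libraries had been sequenced. According to the study's methods, the authors trimmed read pairs with Trimmomatic, aligned them with hisat2 and counted unique pairs with featureCounts, whereas the submitters' processing notes name HISAT2, HTSeq and mm10. Versions, annotation and strand setting are not given in the sources used here. The deposited values are raw counts per Ensembl gene, and 0 rows lacked a gene name. Symbols and positions came from GENCODE mouse M21 (mm10), and promoter windows from RefSeq (GRCm38.p6). The copy used here gave 11 windows for 6 of the 10 genes. A protein table was not used here.

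Counts were analysed in R 4.3.3 with edgeR 4.0.16: filterByExpr (minimum count 10, minimum total 15), TMM factors of 0.973 to 1.04, and 1 quasi-likelihood fit of all 8 libraries with 1 mean per group (4 residual degrees of freedom), two-sided, with Benjamini-Hochberg adjustment over 14591 genes and a threshold of 0.05. SE was obtained by dividing the size of the log2 fold change by the root of F and is approximate. In simulated data for Trex1-KO against WT (14591 genes), 75.0% of 2-fold and 94.0% of 4-fold changes were recovered, and 12 of 181 calls were false.

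The 10 genes, the 6 lipid lists and the marker lists were chosen with earlier results of these data known. Named list genes were, for each list, up to 2 called genes with the largest change in each of 3 comparisons (Trex1-KO against WT and each antagonist against vehicle), and for each called member the 2 genes with the nearest profile. Other list genes are named as members of counts, after their values were seen. The values of 1 list gene are not reported here, although the counts include it. Alternatives were total-count scaling, other count filters, DESeq2 1.42.0, edgeR's exact test, only the 2 groups compared, a replicate block and each library left out.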

Additional observations from a re-analysis of the deposited data

How the results depend on the processing

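The 55 results on single genes were recomputed 660 times in all under the alternatives, and 0 results that were called changed sign. The number of the 10 genes, Marco included, called with each library left out in turn was 5 to 6 for Trex1-KO against WT, 6 to 7 for Trex1-KO+H151 and 5 to 6 for Trex1-KO+SN-011 against WT. For H151 against vehicle it was 0 to 2 (Apoe and Cd36, without H151 replicate 2), for SN-011 against vehicle it was 0, and for SN-011 against H151 it was 0 to 3 (Apoe, Cd36 and Msr1, without H151 replicate 2). With every gene of at least 1 count tested, 3 genes were called for H151 (Apoe, Cd36 and Lpl), 2 for SN-011 (Apoe and Nr1h3) and 3 for SN-011 against H151 (Apoe, Lpl and Msr1). With edgeR's exact test 1 gene was called in each of these, with DESeq2 1 for SN-011 against H151, and with only the 2 groups compared 2 for SN-011 against vehicle (Apoe and Nr1h3). Of the list genes, 6 were called for H151, 7 for SN-011 and 1 for SN-011 against H151 with every gene of at least 1 count. Leaving out libraries gave 0 to 5 list genes for H151 (0 without Trex1-KO replicate 2), 1 to 2 for SN-011, 0 to 2 for SN-011 against H151 (2 without H151 replicate 2) and 14 to 18 for Trex1-KO+SN-011 against WT (14 and 15 without SN-011 replicate 1 and 2), where 23 of 73 (31.5%, beside 11.7% of all tested genes) were called with all libraries. The cause was not tested.

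Titles share replicate numbers, but the labels do not say what these stand for, and same-numbered libraries deviated together with correlations of -0.016 to 0.194 across genes, so they were not taken as pairs. With the replicate number as a block, 1 of the 10 genes was called for SN-011 against vehicle (Nr1h3, adjusted p = 0.0388), 2 for SN-011 against H151 (Apoe and Msr1, adjusted p = 0.0337 and 0.0453) and 5 list genes for H151.

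Values that changed sign were all small and not called as reported. With total-count scaling these were Abca1 (-0.0398) and Apoe (-0.0211) in Trex1-KO against WT, Abca1 (0.0132) for H151, Lpl (0.0135) for SN-011 and Abca1 (-0.0266) for Trex1-KO+H151 against WT. The other 17 came from leaving out a library, with ranges of -0.0285 to 0.140 for Apoe in Trex1-KO against WT. For H151 the ranges were -0.0402 to 0.0197 for Abca1, -0.290 to 0.0793 for Apoe and -0.0124 to 0.0232 for Fabp4. For SN-011 they were -0.0344 to 0.0784 for Cd36, -0.0292 to 0.0397 for Abcg1 and -0.114 to 0.0788 for Lpl. For Trex1-KO+H151 against WT they were -0.0045 to 0.0502 for Abca1 and -0.234 to 0.130 for Apoe.

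Marco could not be fitted with only the 2 groups compared among Trex1-KO libraries, and its counts there limit it to ratios with wide intervals. The intervals of these Marco ratios cover counting error only, and those of the other genes the spread between these libraries only.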

Other observations

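A contrast chosen after seeing that Nr1h3 lay lower in all 4 antagonist libraries than in both vehicle-treated ones set the mean of both antagonist groups against vehicle in Trex1-KO BMDMs. Nr1h3 differed by -0.41 ± 0.09 SE on the log2 scale. This restates the observation that prompted the contrast, so it is given with no p and does not bear on the separate comparisons, in which Nr1h3 was not called. In the same contrast the other genes, Marco aside, lay between -0.06 (Abca1) and 0.12 (Fabp4).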
